A study of Mus musculus with 2 samples.

Results

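Mir219a-1, Mir219a-2 and Mir338 are 3 microRNA genes known from the oligodendrocyte, the cell that wraps axons of the central nervous system in myelin. They were taken by their GENCODE M21 symbols from the 1973 microRNA genes of the tables, by a rule that uses no measured value, and each of the 3 has a row. The samples were the hindbrains of 2 newborn (postnatal day 0) mice of strain B6NCrl, called pup 3 and pup 1 in the labels. Each library came from total RNA of a single whole hindbrain with no treatment or genetic change named, and the labelled size range was below 30 nt. There is 1 group and no condition, so the values below are levels in this tissue and differences between 2 animals with 1 library each. Both pups carry the same donor identifier in the labels, their sex was not collected, and whether they were littermates is not given in the sources used here.

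MicroRNAs are cut from a hairpin precursor and pair through their seed, bases 2 to 8, with messenger RNAs that they repress. In the rodent central nervous system, miR-219 and miR-338 are switched on as precursor cells leave the cell cycle, and they repress messages that hold those cells back, among them Sox6 and, for miR-219, the growth factor receptor Pdgfra. Most myelin of the mouse brain forms after birth, so a newborn hindbrain is an early stage for these microRNAs. The tables hold microRNA genes alone and no oligodendrocyte messenger RNA, so the cells that the counts came from were not measured. In whole tissue, fewer cells of a type and less RNA per cell cannot be told apart.

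The mature microRNAs come first, because the 2 Mir219a genes differ in what a count can show. RefSeq (GRCm38.p6, the assembly mm10) held hairpin sequences for all 3 genes, and the mature sequences it pairs with them follow 5′ to 3′, with the seed in capitals.
miR-219a-5p (Mir219a-1 and Mir219a-2): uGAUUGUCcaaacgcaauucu
miR-219a-1-3p (Mir219a-1): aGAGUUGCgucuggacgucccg
miR-338-5p (Mir338): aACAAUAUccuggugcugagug
miR-338-3p (Mir338): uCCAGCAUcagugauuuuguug
The 5′ arm of both Mir219a genes was the same 21 nt, and these were the only 2 genes of the RefSeq table with the seed GAUUGUC. The seeds of miR-219a-1-3p, miR-338-5p and miR-338-3p each belonged to a single gene of that table. The 4 sequences printed thus have 4 different seeds, and the first of them is encoded at 2 loci. The other arm of Mir219a-2, miR-219a-2-3p, is not printed here.

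The precursors show how far that identity reaches. In the Mir219a precursors below, the capitals mark the longest stretch that both share, and in Mir338 they mark the 2 mature arms.
Mir219a-2: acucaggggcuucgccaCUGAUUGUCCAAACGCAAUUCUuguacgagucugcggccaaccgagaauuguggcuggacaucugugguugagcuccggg
Mir219a-1: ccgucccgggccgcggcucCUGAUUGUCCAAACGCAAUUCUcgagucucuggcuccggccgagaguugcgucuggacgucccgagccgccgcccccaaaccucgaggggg
Mir338: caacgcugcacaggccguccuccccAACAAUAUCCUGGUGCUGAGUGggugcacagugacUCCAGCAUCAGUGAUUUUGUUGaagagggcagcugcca
The shared stretch was 22 nt long and contained the whole of miR-219a-5p. It ran from base 18 to base 39 of the Mir219a-2 precursor and from base 20 to base 41 of the Mir219a-1 precursor. The tables appear to count only reads that map to a single locus, and a read that lies within this stretch maps to both genes. Full-length miR-219a-5p reads would then be missing from both rows, and the Mir219a counts below are of other reads from the hairpins, such as those of the 3′ arms or of longer 5′ ends. The tables do not separate arms. Mir338 shared no stretch of 18 nt with any precursor at another locus among 2202 microRNA genes, so no such loss was found for it.

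**Figure D1:**
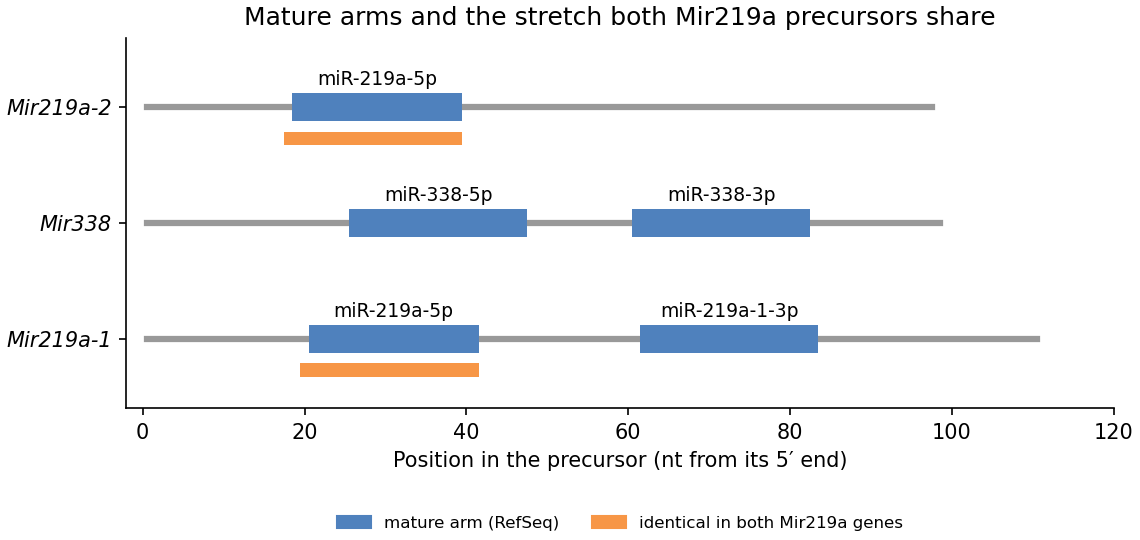
Positions along the 3 precursors in nucleotides from the 5′ end, with mature arms as listed in RefSeq in blue and the stretch identical in both Mir219a genes in orange. The orange stretch of 22 nt covers miR-219a-5p in both Mir219a genes, and no part of Mir338 is marked.

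The 3 genes lie on 3 chromosomes, each on the minus strand with another microRNA gene opposite. Mir219a-2 (ENSMUSG00000065485.1) spans chr2:29845631-29845727 (mm10), outside any annotated gene on its own strand and 629 bp from Urm1, the nearest protein-coding gene. Mir219a-1 (ENSMUSG00000065555.1) spans chr17:34024983-34025092, within an exon of the long non-coding RNA gene Gm26940 and 303 bp from Ring1. Mir338 (ENSMUSG00000065600.1) spans chr11:120014765-120014862, within an intron of Aatk, a kinase gene of the nervous system read in the same direction. The precursors are 97 nt, 110 nt and 98 nt long, in the same order. Their G and C content is 55.7%, 69.1% and 56.1%.

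Mir219a-2 had the highest level of the 3, with 3161 counts in pup 3 and 2037 counts in pup 1. Scaled to the same-strand total of the library (CPM), its levels were 1049 in pup 3 (95% exact counting interval 1013 to 1087) and 828 in pup 1 (793 to 865), or 939 ± 156 CPM (SD, n = 2). The counting intervals of the pups did not overlap. Mir338 had 2516 counts in pup 3 and 1673 in pup 1. Its level was 835 CPM in pup 3 (803 to 869) and 680.1 CPM in pup 1 (648 to 714), or 758 ± 109.7 CPM (SD, n = 2). As with Mir219a-2, pup 3 was the higher animal and the intervals stood apart.

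Mir219a-1 was far lower, with 349 counts in pup 3 and 289 in pup 1. Its level was 116 CPM in pup 3 (104 to 129) and 117 CPM in pup 1 (104 to 132), or 117 ± 1.16 CPM (SD, n = 2). Here the pups could not be told apart, with intervals that covered each other almost wholly. These intervals treat each read as independent and cover the counting error of reads only. They would be too narrow where copies of 1 molecule were counted as several reads.

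**Figure D2:**
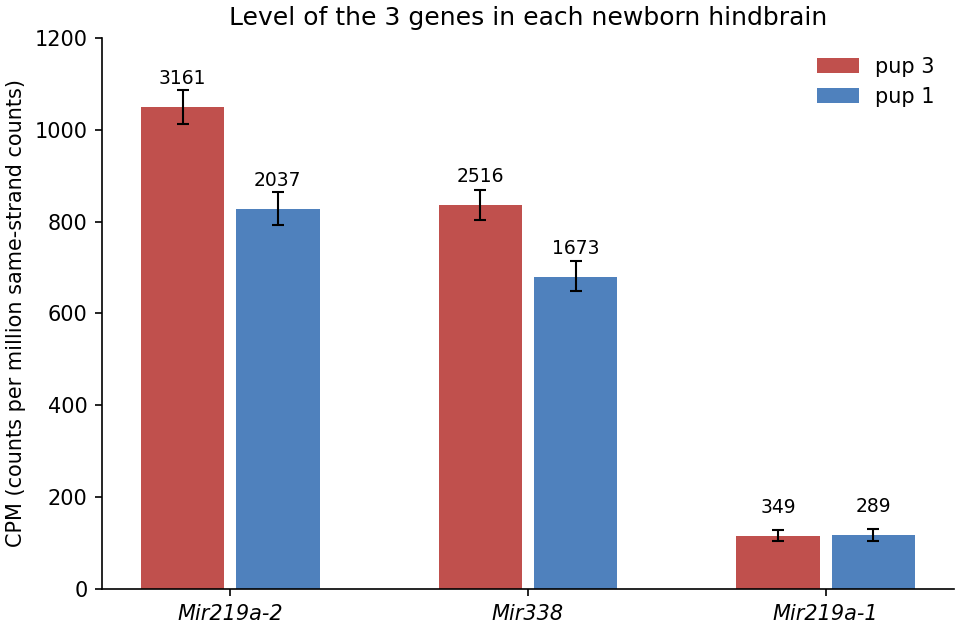
Level of each gene in CPM in pup 3 (red) and pup 1 (blue), with 95% exact counting intervals and the raw count above each bar. Mir219a-2 and Mir338 stand higher in pup 3, at 1049 against 828 CPM and 835 against 680.1 CPM, while the bars of Mir219a-1, at 116 and 117 CPM, are level.

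The order Mir219a-2, Mir338, Mir219a-1 held in each pup. Mir219a-2 had 1.26 counts per count of Mir338 in pup 3 (counting interval 1.19 to 1.32) and 1.22 in pup 1 (1.14 to 1.30). In both pups the interval lay above 1, so this order held within each library. Between animals the levels overlapped, since Mir338 in pup 3, at 835 CPM, exceeded Mir219a-2 in pup 1, at 828 CPM. Mir219a-2 had 9.06 counts per count of its paralog Mir219a-1 in pup 3 (8.11 to 10.1) and 7.05 in pup 1 (6.23 to 8.0). That step was many times the spread between the pups. Divided by precursor length, the levels were 10.8 CPM per nt for Mir219a-2, 8.52 for Mir338 and 1.05 for Mir219a-1 in pup 3. The same quantities in pup 1 were 8.54, 6.94 and 1.07 CPM per nt, in the same order. As the layout of the counts implies, reads that map to both Mir219a loci may be left out. Each ratio with a Mir219a gene would then rest on its other reads and not on total output.

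Among the 699 genes with a count in either pup, Mir219a-2 ranked 101 in pup 3 and 113 in pup 1. Mir338 ranked 113 in pup 3 and 119 in pup 1, and Mir219a-1 ranked 223 in pup 3 and 220 in pup 1. Together the 3 genes had 6026 counts in pup 3, or 0.20% of its counts (exact interval 0.195% to 0.205%), and 3999 counts in pup 1, or 0.163% (0.158% to 0.168%). Mir219a-2 made up 52.5% of these counts in pup 3 and 50.9% in pup 1, Mir338 made up 41.8% in both pups, and Mir219a-1 made up 5.79% in pup 3 and 7.23% in pup 1. By counted reads, the members thus all ranked among the 223 highest of the 699 detected genes and held a small part of each library. If reads that map to both Mir219a loci are left out, the ranks and shares of the Mir219a genes rest on their other reads. No such loss was found for Mir338, so the split between the 3 genes is one of counted reads.

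**Figure D3:**
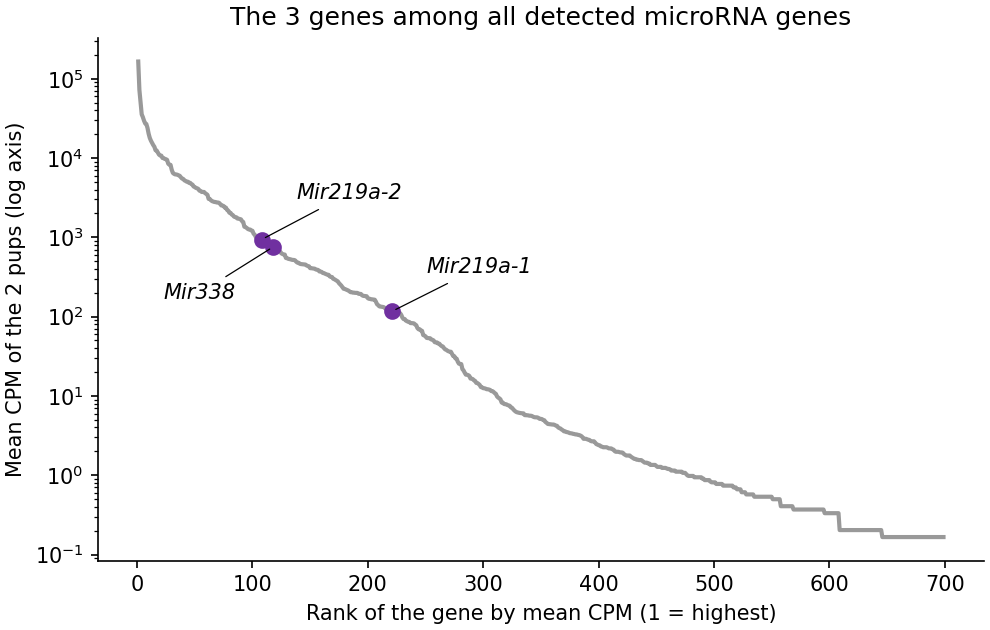
Mean CPM of the 2 pups on a log axis against rank for the 699 microRNA genes with a count, with the 3 genes marked. Mir219a-2 and Mir338 sit beside each other at ranks 108 and 118 by mean, and Mir219a-1 at rank 221.

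The genes whose levels were most like each member were found by the distance of log2(CPM + 1) over the 2 pups, which are only 2 points. Nearest to Mir219a-2 were Mir217, at 1048 CPM in pup 3 and 939.9 CPM in pup 1, Mir676 and Mir448, at distances of 0.18, 0.18 and 0.19. Nearest to Mir338 was Mir340, at 858 CPM in pup 3 and 675 CPM in pup 1 and a distance of 0.041, followed by Mir330 and Mir383. Nearest to Mir219a-1 were Mir1306, at 118 CPM in pup 3 and 115 CPM in pup 1, Mir194-2 and Mir192, all within 0.084.

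Counted reads on the opposite strand were almost absent at the 3 loci. GENCODE M21 annotates Mir219b opposite Mir219a-2, Mir219c opposite Mir219a-1 and Mir3065 opposite Mir338, all inside the span of the member, and none of these has a row in the tables used here. Their reads, where they map to a single locus, would fall in the opposite-strand column of the member. At the Mir219a loci, opposite-strand reads within the shared stretch of 22 nt would map to both loci and appear not to be counted. At Mir338 that column held 2 counts in pup 3 and 1 in pup 1, beside 2516 and 1673 on the strand of Mir338. This locus is a direct view of both strands, because miR-3065-5p covers 21 of the 22 bases of miR-338-3p in antisense.
miR-3065-5p (Mir3065): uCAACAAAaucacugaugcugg
At Mir219a-2 the opposite strand had 3 counts in pup 3 and 1 in pup 1, and at Mir219a-1 it had 5 in pup 3 and 2 in pup 1. Of these, the 5 counts at Mir219a-1 in pup 3 alone exceeded the 3 counts that a count of 0 allows.

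Pup 3 and pup 1 differed in 2 of the 3 genes by an exact binomial test on TMM-scaled totals (two-sided, Benjamini-Hochberg adjustment over the 395 genes that reached 10 counts in a library). Mir219a-2 had a log2 fold, pup 3 over pup 1, of 0.29 (counting interval 0.21 to 0.37, exact binomial adjusted p = 7.07e-12). Mir338 had a log2 fold of 0.24 (0.15 to 0.33, exact binomial adjusted p = 2.97e-07). Mir219a-1 had a log2 fold of -0.07 (-0.30 to 0.16, exact binomial adjusted p = 0.676) and did not pass. The test sets 1 library against another and is no test of a condition. By the same rule 46.8% of the 395 genes were called and 25.6% were called in the direction of Mir219a-2 and Mir338, so a call is common here.

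Set against the spread between the 2 pups, each of the 3 differences lay within 1 SD. The common biological coefficient of variation (edgeR) over 361 genes, the members among them, was 16.6%. With 1 library per pup, this spread holds differences of animal and of library together, and they cannot be told apart. A log2 fold between these 2 libraries then has an SD of 0.34. The log2 folds of Mir219a-2, Mir338 and Mir219a-1 were 0.85, 0.72 and -0.22 of that SD. With this spread included, in edgeR's exact test with that common dispersion, the adjusted p was 1.0 for each member, and 0.506% of the 395 genes were called, 0.253% as higher and 0.253% as lower in pup 3. By size of log2 fold, without sign, Mir219a-2 ranked 160, Mir338 ranked 182 and Mir219a-1 ranked 324 among the 395, whose median size was 0.22.

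**Figure D4:**
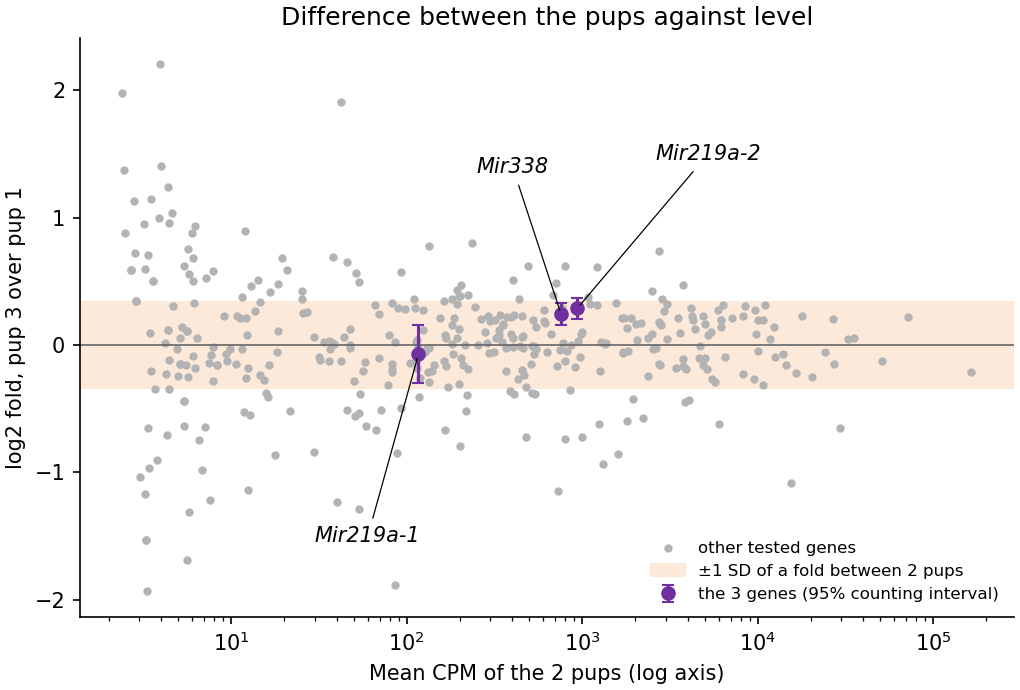
Log2 fold, pup 3 over pup 1, against the mean CPM of the 2 pups on a log axis for 395 tested genes, with the 3 members and their 95% counting intervals in purple. The shaded band is ±0.34, 1 SD of the spread estimated from these 2 pups, and the points at 0.29, 0.24 and -0.07 all lie inside it.

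Ratios between members do not depend on how the libraries are scaled, and 3 pairs were compared by Fisher's exact test, a test added after the counts were seen. The ratio of Mir219a-2 to Mir338 was 1.03 times as high in pup 3 as in pup 1 (interval 0.949 to 1.12, adjusted p = 0.470 over the 3 pairs, Fisher's exact test). Their balance in the 2 animals thus differed by less than counting error, and the interval bounds any difference at 1.12 times. The ratio of Mir219a-2 to Mir219a-1 was 1.29 times as high in pup 3 (1.09 to 1.52, adjusted p = 0.00933, Fisher's exact test). That of Mir338 to Mir219a-1 was 1.25 times as high in pup 3 (1.05 to 1.47, adjusted p = 0.0160, Fisher's exact test). On the log2 scale these 2 shifts were 0.36 and 0.32, both below the 0.48 that the spread between pups gives as 1 SD for a difference of 2 log2 folds.

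Other microRNA genes known in the oligodendrocyte lineage were present at a wide range of levels. Of 19 listed genes, 18 have a row, those of miR-146a and miR-92a-1 under the older symbols Mir146 and Mir92-1, and Mir9-1 has none. Of the 17 tested between the pups, 5 were higher in pup 3, 8 were lower and 4 did not pass by the exact binomial test, which called 25.6% of all tested genes higher and 21.3% lower. None of the 17 passed edgeR's exact test with the spread between pups (lowest adjusted p = 0.581), in which 0.506% of all genes were called. Their median log2 fold was -0.10, beside a median of 0.02 over all tested genes. For the members these counts were 2 higher, 0 lower and 1 not passing, with a median of 0.24.

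Among genes that promote differentiation or myelin, Mir23a, which lowers the nuclear protein lamin B1 in oligodendrocytes, was the most abundant, at 9038 CPM in pup 3 and 7452 CPM in pup 1. Mir138-1 and Mir138-2, which encode a microRNA that favours early steps of differentiation, lay nearer to Mir219a-2 in pup 3 than in pup 1. In pup 3 they stood at 1167 and 775 CPM, against 2031 and 1232 CPM in pup 1. Both were lower in pup 3 (log2 folds -0.85 and -0.72, exact binomial adjusted p = 3.76e-160 and 3.24e-73), the direction opposite to Mir219a-2 and Mir338, and both passed no longer with the spread between pups included (edgeR adjusted p = 0.581 and 0.703). The Mir138 precursors share 22 nt with each other, so they too could be undercounted. Mir23a shares a stretch of 20 nt with Mir23b, and Mir146 with Mir146b, so shorter reads could be lost there. Mir32, described in myelin upkeep, stood at 303 CPM in pup 3, against 167 CPM in pup 1 (log2 fold 0.80, exact binomial adjusted p = 3.81e-21, edgeR adjusted p = 0.703). Mir146 stood at 127.8 CPM in pup 3, against 127.7 CPM in pup 1, close to Mir219a-1, and Mir200b had 29.5 and 21.1 CPM in the same pups.

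The Mir17-92 cluster, which supports the number of oligodendrocyte precursors, contained the most abundant gene of the 3 lists. Mir17 was at 9766 CPM in pup 3, against 11681 CPM in pup 1. Mir20a followed at 4699 CPM in pup 3, against 5037 CPM in pup 1, and Mir18 at 2946 CPM in pup 3, against 2505 CPM in pup 1. Mir92-1, which shares 22 nt with Mir92-2, was close to Mir219a-2, at 959.7 CPM in pup 3 and 987 CPM in pup 1. Mir19a was at 47.8 CPM in pup 3 and 28.5 CPM in pup 1, and Mir19b-1, which shares 22 nt with Mir19b-2, at 7.30 and 8.54 CPM. By counted reads, members of 1 cluster thus spanned levels both above and below the 3 genes. Mir19b-1, the lowest, could be undercounted. Mir19a, also below the 3 genes, shared no stretch of 18 nt with any precursor at another locus.

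Genes described as opposing maturation or lowering myelin transcripts ranged from Mir125a, at 4906 CPM in pup 3 and 5388 CPM in pup 1, to Mir9-2, with 5 counts in pup 3 and 3 in pup 1. Mir212 was near the level of Mir219a-1, at 103 CPM in pup 3 and 132 CPM in pup 1. Mir27a reached 239.7 CPM in pup 3, against 167 CPM in pup 1, Mir145a had 199.8 and 207 CPM, and Mir9-3 had 433 and 524 CPM in the same pups. Mir9-2 and Mir9-3 each share 22 nt with 3 other genes, and reads that map to several of these loci appear not to be counted. Mir27a shares a stretch of 20 nt with Mir27b, so its shorter reads could be lost too.

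**Figure D5:**
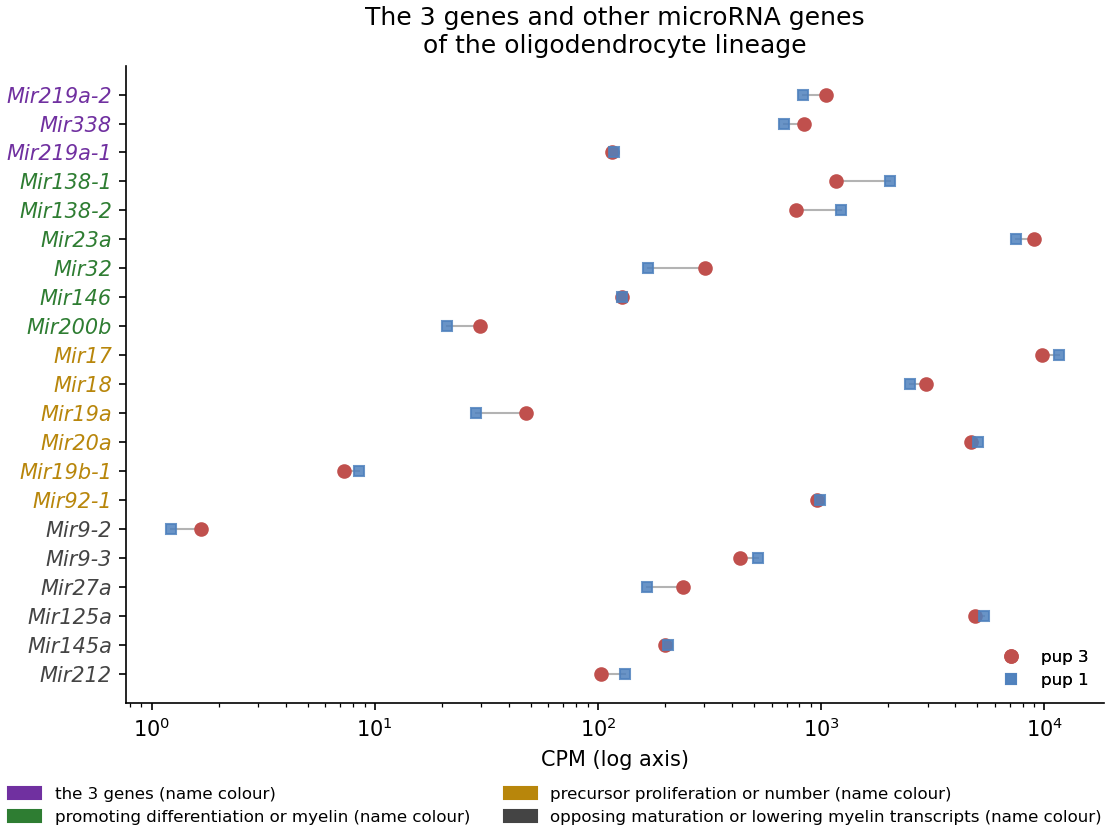
CPM in pup 3 (red circles) and pup 1 (blue squares) on a log axis for the 3 genes and 18 other microRNA genes of the oligodendrocyte lineage, with name colours for the lists. Mir219a-2 and Mir338 sit between Mir23a or Mir17, at 7452 CPM or more, and genes such as Mir19b-1, below 10 CPM, which could be undercounted.

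The libraries held 3012320 same-strand counts in pup 3 and 2459757 in pup 1, and a count of 0 allows 0.996 CPM and 1.22 CPM. Neuronal markers held 2.20% of counts in pup 3 and 1.88% in pup 1, where 3 of 4 tested genes were called higher in pup 3 by the exact binomial test (25.6% of all genes) and none by edgeR's test (adjusted p = 1.0 each). Nearly all of these counts came from Mir137, Mir128-1 and Mir128-2. Mir124a-1, Mir124a-2 and Mir124a-3 had 17, 9 and 2 counts in pup 3 and 12, 4 and 3 in pup 1. Stretches shared with other loci were not searched for these markers, so a loss of reads there was not assessed. The low Mir124a counts thus cannot be read as a low level of the microRNA of these genes. The neural progenitor markers held 0.309% in pup 3 and 0.336% in pup 1. Endothelial Mir126a held 3.69% in pup 3 and 3.42% in pup 1, and smooth muscle markers 0.972% and 0.763%, nearly all from Mir143 (log2 fold 0.31), while Mir145a (-0.10) did not pass. Leukocyte markers held 0.0229% in pup 3 and 0.0169% in pup 1, where Mir142b had no count and Mir142 has no row, and red blood cell markers held 0.0105% and 0.0151%. The 2 red blood cell markers moved in opposite directions and were the only 2 genes called by edgeR's test. Mir144 stood at 67.1 CPM in pup 3, against 17.1 CPM in pup 1 (log2 fold 1.91, edgeR adjusted p = 0.000984), and Mir451a at 37.5 CPM in pup 3, against 133.8 CPM in pup 1 (-1.88, edgeR adjusted p = 0.000312). Choroid plexus Mir204 held 0.355% in pup 3 and 0.461% in pup 1, multiciliated cell markers 0.917% and 0.906% (log2 folds 0.07 for Mir449a and -0.19 for Mir34c), and sensory ganglion markers 0.203% and 0.279%. Mir9-2, Mir9-3 and Mir145a stand on both a marker and a lineage list. The summed shares of neuronal, endothelial, smooth muscle and leukocyte markers were higher in pup 3, as were Mir219a-2 and Mir338. Those of neural progenitor, red blood cell, choroid plexus and sensory ganglion markers were lower. Among the sensory ganglion markers only Mir182 was lower (log2 fold -0.93, edgeR adjusted p = 0.382). Mir183 (-0.05) and Mir96 (0.02) did not pass the exact binomial test. The summed share of multiciliated cell markers differed little, and its 2 genes moved in opposite directions. The part of any of these markers in the difference of the members was not tested.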

How the data were processed

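The authors deposited 1 table per library with whole-number read counts per microRNA gene, from alignments to mm10 with GENCODE M4 annotation, per the listings deposited with them. For the aligner, counter, trimming and versions, nothing is given in the sources used here. The tables have 3 unnamed count columns and 4 rows that name no gene. In all 1973 gene rows the first is the sum of the others, the layout of a counter of reads at a single locus, so the second was taken as same-strand counts, which are used throughout. The 4 rows stayed out of totals. Several loci were hit by 42.0% of reads in pup 3 and 40.2% in pup 1, 12.4% and 13.7% were unmapped, and 3.63% and 3.79% had no gene on their strand.

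Symbols and positions came from GENCODE M21 (1894 of 1973 rows matched), and sequences from RefSeq and GENCODE M21. CPM used the same-strand totals. Intervals are 95% Clopper-Pearson. Log2 folds add 0.5 to each count. With 1 library a side, edgeR's quasi-likelihood test could not be run, so an exact binomial test (scipy 1.17.1) was the main one. It was also run on simulated data, with and without a spread between pups, and the outcome is not given here. Scalings and spread came from edgeR 4.0.16 and DESeq2 1.42.0 in R 4.3.3. Alternatives were other scalings and totals, either-strand counts, no count filter, each pup alone and a test with spread between pups. The text names the members, genes opposite them, 3 lineage lists, genes sharing a seed, the 3 genes nearest each in level and cell type markers. Members and lists were chosen with earlier results of these data known.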

Additional observations from a re-analysis of the deposited data

Results flagged for a closer look

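Reads that map to several loci are used in no comparison. Their share was 42.0% in pup 3 and 40.2% in pup 1, and any full-length miR-219a-5p reads would be among them. Opposite-strand counts, which enter no main comparison and only the either-strand alternative, came to 5 at Mir219a-1 in pup 3, above the 3 counts that a count of 0 allows, and to 2 in pup 1.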

How the results depend on the processing

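Over all reads of a library in place of same-strand counts, the levels were 395 CPM for Mir219a-2, 319 CPM for Mir338 and 49.2 CPM for Mir219a-1. With either-strand counts and totals Mir219a-1 had 114.4 CPM. Each pup alone gave 828 to 1049 CPM for Mir219a-2, 680.1 to 835 CPM for Mir338, 116 to 117 CPM for Mir219a-1 and 0.163% to 0.20% for their sum. In edgeR's exact test with the common dispersion, Mir219a-2 (log2 fold 0.29) and Mir338 (0.24) passed no longer, and 2 genes of 395 were called, 1 higher and 1 lower in pup 3, against 185, 101 and 84 by the exact binomial test, while 23 had an unadjusted p under 0.05 in edgeR's test. That test includes by construction the spread between pups, which was estimated from the same 2 libraries. Of the alternatives, 45 gave the same reading, 7 moved a value, 2 ended a call and 0 reversed a direction. A level or sum from 1 pup could only read as the same. With 2 pups, each value lies within 1 SD of their mean. Under DESeq2 size factors, plain totals, no filter and either-strand counts, the log2 fold of Mir219a-2 lay between 0.28 and 0.34, that of Mir338 between 0.24 and 0.30 and that of Mir219a-1 between -0.07 and -0.02. Leaving out a pup gives no comparison of pups. No paired analysis was possible because there is 1 group. With 289 and more counts per member, depth limits Mir219a-1 most.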
